A study of Homo sapiens with 2 samples.

Results

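Hedgehog, Wnt and Notch signalling and the HOXB genes are represented by 9 genes in the authors' table of differences between MYB-expressing and MYB-silenced MiaPaCa cells. MiaPaCa is an established human pancreatic cancer cell line, and MYB is a transcription factor. The 9 genes, SHH, PTCH1, DKK1, TCF7, DLL1, MAML2, HES4, HOXB8 and HOXB9, are 9 of the 836 loci listed there. They were selected by name from a list that the authors' own p-value had already restricted, and with the levels and ratios of both libraries known, so every ratio below is a description of genes chosen for differing.

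The table compares 2 RNA-seq libraries. The Scr control library is from MiaPaCa cells transfected with pGFP-V-RS-Scr, a control plasmid, and its label gives the genotype as MYB-overexpression. The MYB-silenced library is from MiaPaCa cells transfected with pGFP-V-RS-shMYB, which expresses short hairpin RNA against MYB. Both were puromycin-selected pools of stable transfectants, and the protocols name no plasmid that expresses MYB and no second hairpin. With 1 library a group there are no replicates, so no test was made and no value has an error. In such a pool, fewer cells that express a gene and less RNA per cell cannot be told apart.

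Levels are in FPKM, fragment counts scaled to transcript length and to the mapped fragments of the library. Differences are given as log2(MYB-silenced FPKM + 0.5) minus log2(Scr control FPKM + 0.5), so negative values mean lower after silencing, and the added 0.5 understates the difference of weakly expressed genes. MYB had 981 FPKM in control cells against 0.554 FPKM in silenced cells, giving a log2 ratio of -9.86. Its control value was above that of LDHA, 802 FPKM in the same library. Loci named GH1 had 42.9 and 4.53 FPKM in control cells and 0 FPKM in silenced cells. Whether the MYB RNA of the control library, labelled MYB-overexpression, came from the cells' own gene or an introduced copy was not tested. The ratios below are therefore not read as loss of the cells' own MYB. Of all 836 loci, 516 were lower and 320 higher after silencing, and the p-values of the authors' deposited table ran up to 0.04995. With 1 library a group, these p-values cannot include variation between replicates, so they do not show that a difference would recur. A gene outside the table was not analysed here. Sequencing depth is unknown. Of 23 genes that mark epithelial, mesenchymal, fibroblast, blood, endothelial, acinar or endocrine cells, INS alone was listed, inside a joint locus with IGF2, so the identity of the cells could not be checked on these values.

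Hedgehog signalling starts when a secreted ligand such as SHH binds the receptor PTCH1, which otherwise holds the transducer SMO inactive, and GLI factors then switch on targets that include PTCH1 itself. In canonical Wnt signalling, Frizzled and LRP receptors act through Dishevelled to stabilise beta-catenin, which joins TCF/LEF factors on DNA, and secreted DKK1 blocks the LRP co-receptors. Notch receptors are activated by ligands on neighbouring cells, such as DLL1, and the released intracellular part binds RBPJ and a Mastermind coactivator such as MAML2 to switch on HES and HEY genes. HOX genes lie in 4 clusters and encode homeodomain factors that pattern the body axis. Hedgehog and Notch signalling take part in pancreas development and in pancreatic cancer.

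Promoter sequences are shown for the genes whose window holds the element of a factor of their own pathway or of MYB, so that these letters can be seen in place. The RefSeq promoter table (GRCh38.p14) had 11 windows of 300 bases, 250 before and 50 after a transcript start, for 6 of the 9 genes: SHH, PTCH1, DKK1, TCF7, MAML2 and HES4. DLL1, HOXB8 and HOXB9 were not matched. The letters searched, on both strands, were TAACGG or CAACGG or TAACTG or CAACTG for MYB, GACCACCCA for GLI, CTTTGAT or CTTTGTT for TCF/LEF, GTGGGAA for RBPJ, and TATAAA for the TATA box. The stretches below are 5′ to 3′ on the gene's strand and end at the last base before the transcript start, except that of HES4, which is the 30 bases around its match because an annotated exon of HES4 reaches into it. The DKK1 stretch also lies in an exon of the non-coding PRKG1-AS1 on the other strand. Capitals mark the matches.
SHH, chr7:155812464-155812713, minus strand, MYB element: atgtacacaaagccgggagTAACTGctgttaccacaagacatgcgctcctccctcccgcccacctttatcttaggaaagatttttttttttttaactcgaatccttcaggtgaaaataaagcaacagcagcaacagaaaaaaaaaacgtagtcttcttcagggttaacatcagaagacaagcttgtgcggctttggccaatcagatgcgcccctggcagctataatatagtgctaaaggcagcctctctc
PTCH1, chr9:95509267-95509458, minus strand, GLI element read on the other strand: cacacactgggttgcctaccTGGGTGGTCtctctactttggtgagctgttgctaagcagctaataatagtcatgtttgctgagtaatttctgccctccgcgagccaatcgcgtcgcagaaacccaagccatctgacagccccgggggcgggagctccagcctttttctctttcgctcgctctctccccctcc
DKK1, chr10:52314185-52314280, plus strand, TCF/LEF element and TATA box: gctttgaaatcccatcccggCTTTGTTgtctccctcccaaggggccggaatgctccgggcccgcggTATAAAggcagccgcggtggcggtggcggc
TCF7, chr5:134123548-134123617, plus strand, TCF/LEF element read on the other strand: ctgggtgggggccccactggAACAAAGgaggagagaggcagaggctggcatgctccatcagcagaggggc
HES4, chr1:1000156-1000185, minus strand, RBPJ element: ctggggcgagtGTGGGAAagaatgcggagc

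The MYB letters were in 1 of the 11 windows, that of SHH, 231 bases before the start, and in 25.7% of all 35116 windows in the table. The GLI letters were in 1 of the 5 PTCH1 windows, 172 bases before the start, and in 0.236% of all windows. TCF/LEF letters were found 76 bases before the DKK1 start and 50 bases before 1 of the 2 TCF7 starts, against 7.61% of all windows. RBPJ letters lay 77 bases before the HES4 start of the window, against 6.25% of all windows. They fall partly inside the annotated HES4 exon, so they are not upstream of every annotated HES4 start. TATA box letters were found 30 bases before the DKK1 start, on its own strand, against 11.5% of all windows. Those 32 bases before the other TCF7 start lie on the other strand, reading TTTATA on the strand of TCF7. No match overlapped another. The MAML2 window held none of these letters. A match of a few letters is a description of the window, and binding was not measured.

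Of the 9 genes, 4 were lower after silencing (SHH, DKK1, TCF7 and MAML2) and 5 were higher (PTCH1, DLL1, HES4, HOXB8 and HOXB9). Among all 797 listed loci whose mean over both libraries reached 1 FPKM, a level that all 9 genes passed, 62.4% were lower. At least 2-fold lower, a log2 ratio of -1 or less, were SHH and DKK1, 2 of the 9, against 24.7% of those loci. At least 2-fold higher were HES4, HOXB8 and HOXB9, 3 of the 9, against 19.9%. These genes were chosen on the same values, so nothing is read from these shares. The median log2 ratio of the 9 was 0.75, and that of the 797 loci was -0.80. Subtracting the median of all listed loci, which were selected for differing, gave 3 lower and 6 higher genes, against 50.3% lower among the 797. This left SHH at -0.45 and TCF7 at -0.17. With the log2 of the plain FPKM ratio, 3 genes were at least 2-fold lower, MAML2 being added, against 29.6% of the 797 loci. All 5 higher genes were then at least 2-fold higher, against 24.3%.

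The ligand gene of the hedgehog pathway was lower and its receptor gene higher. SHH (chromosome 7, 155592678 to 155605168 in hg19, minus strand) had 15.6 FPKM in control cells against 6.24 FPKM in silenced cells. Its silenced level was 40.1% of the control level (log2 ratio -1.25), and the authors' deposited table gave a p-value of 0.00315. PTCH1 (chromosome 9, 98205264 to 98279247, minus strand) measured 1.06 FPKM in control cells and 2.13 FPKM in silenced cells. That is 2.01 times the control level and a log2 ratio of 0.75, with a p-value of 0.0424 in the authors' deposited table. SHH stood above PTCH1 in both libraries, by 14.7-fold in the control and 2.94-fold after silencing, so the FPKM quotient of ligand over receptor shrank 5.00-fold between the libraries. PTCH1 was among the weakest of the 9 genes, and its ratio rests on levels near 1 to 2 FPKM. No other gene of the 21 in the hedgehog list was in the table. SMO, SUFU, HHIP and the 3 GLI genes were therefore not analysed here.

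**Figure D1:**
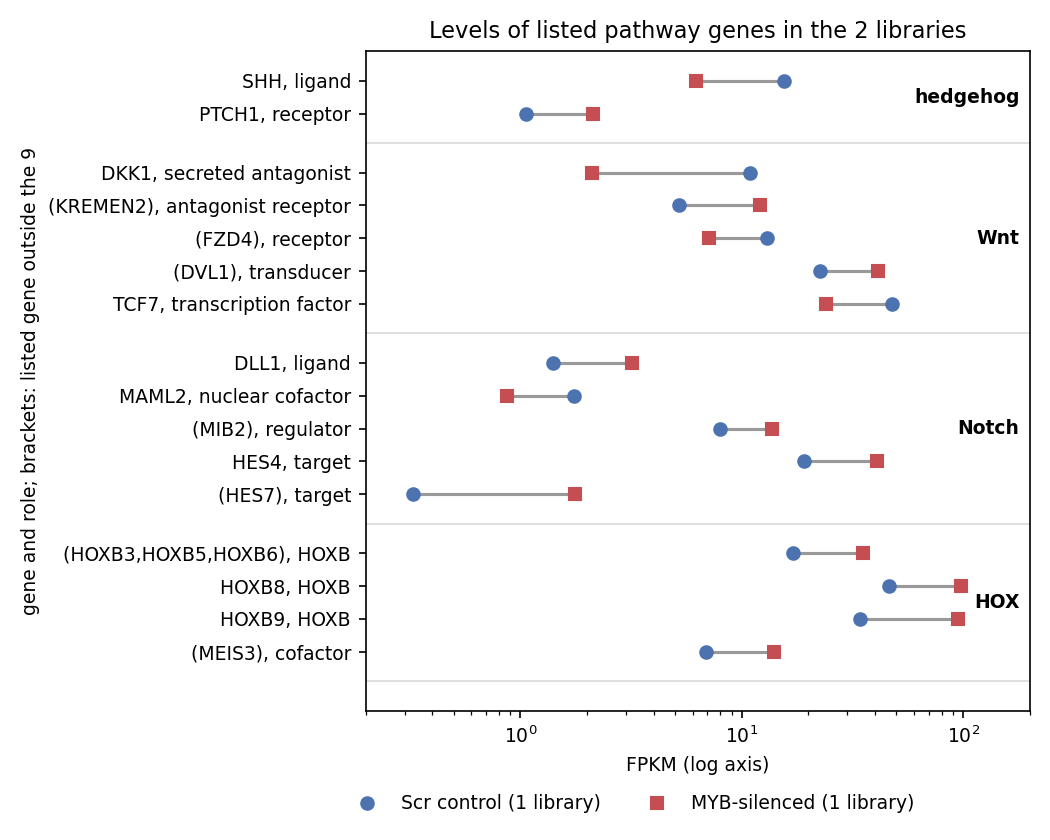
FPKM (log axis) of the 16 listed loci of the hedgehog, Wnt, Notch and HOX lists, with circles for the 1 Scr control library and squares for the 1 MYB-silenced library. The lines of SHH, DKK1, FZD4, TCF7 and MAML2 run left from circle to square (lower after silencing), and the other 11 run right.

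In the Wnt pathway, both members of the set were lower, one an inhibitor and the other an effector. DKK1 (chromosome 10, 54074041 to 54077417, plus strand), the secreted antagonist, had 10.9 FPKM in control cells against 2.11 FPKM in silenced cells. It had the lowest log2 ratio of the 9, -2.13, ranked 21 from the bottom of all 836 loci, and was left at 19.3% of its control level (p-value of 0.001 in the authors' deposited table). TCF7 (chromosome 5, 133450402 to 133483920, plus strand), a DNA-binding partner of beta-catenin also known as TCF-1, measured 47.5 FPKM in control cells and 24.1 FPKM in silenced cells. Its log2 ratio was -0.96, with a p-value of 0.00815 in the authors' deposited table. TCF7 therefore exceeded DKK1 by 4.35-fold in the control and by 11.4-fold after silencing.

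Of 90 genes in the Wnt list, 5 were in the table, and 3 of these were lower and 2 higher, with a median log2 ratio of -0.84, beside 62.4% lower and a median of -0.80 among the 797 loci. The list holds 19 WNT ligand genes and none was in the table. KREMEN2, a receptor that binds DKK1 and helps it to clear LRP co-receptors from the surface, measured 5.22 FPKM in control cells and 12.1 FPKM in silenced cells (log2 ratio 1.14). DKK1 was thus 2.10 times the level of KREMEN2 in the control library, whereas KREMEN2 was 5.74 times the level of DKK1 in the silenced library. The quotient of this pair was added after the values were seen. The Wnt receptor gene FZD4 was at 13.1 and 7.08 FPKM (log2 ratio -0.84), and DVL1, a Dishevelled gene, was at 22.7 and 41.3 FPKM (log2 ratio 0.85). Antagonist, receptor and TCF factor were thus lower, and the antagonist's receptor and the transducer were higher. None of the 6 genes entered as targets in the Wnt list was in the table. This does not cover targets that are entered under another role or are outside the list.

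**Figure D2:**
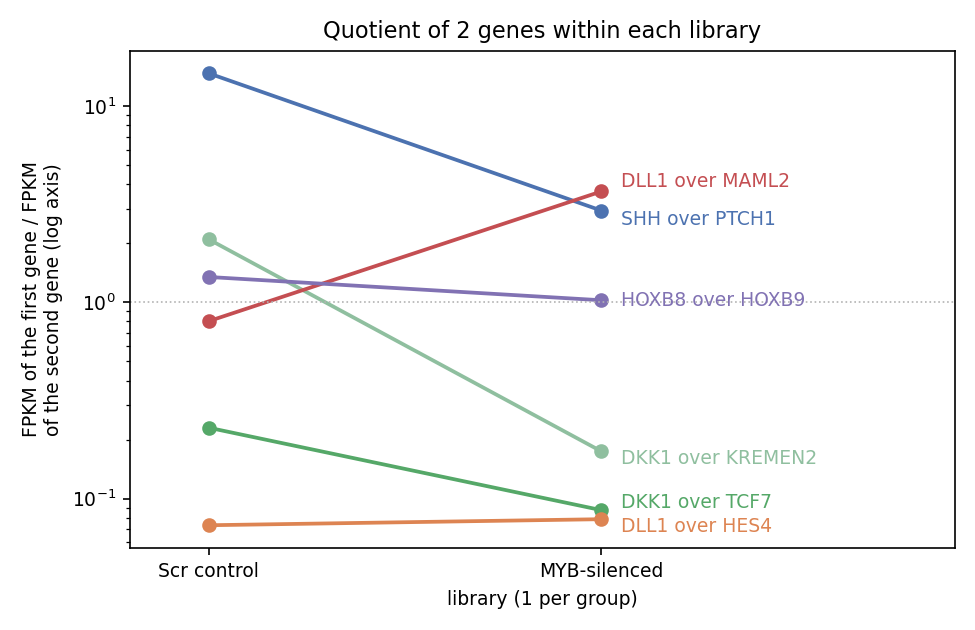
Quotient of the plain FPKM (no pseudocount) of 2 genes within the Scr control library and within the MYB-silenced library (log axis, 1 library each, no error available), with a dotted line at equal levels. SHH over PTCH1 goes from 14.7 to 2.94 and DLL1 over MAML2 from 0.803 to 3.68, while DLL1 over HES4 is nearly level at 0.0732 and 0.0786.

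Among Notch genes, the ligand and the target were higher and the coactivator was lower. DLL1 (chromosome 6, 170591294 to 170599697, minus strand), a membrane-bound ligand, had 1.40 FPKM in control cells against 3.20 FPKM in silenced cells. Its log2 ratio was 0.96, with a p-value of 0.03875 in the authors' deposited table. HES4 (chromosome 1, 934342 to 935552, minus strand), a basic helix-loop-helix repressor of the HES family of Notch targets, measured 19.2 FPKM in control cells and 40.8 FPKM in silenced cells, giving a log2 ratio of 1.07. The authors' deposited table gave it a p-value of 0.0215. DLL1 was at 2.28 times and HES4 at 2.13 times its control level, so HES4 had 13.7 times the level of DLL1 in control cells and 12.7 times in silenced cells.

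MAML2 (chromosome 11, 95710511 to 96076344, minus strand), the Mastermind coactivator, measured 1.75 FPKM in control cells and 0.871 FPKM in silenced cells. Its log2 ratio was -0.71, the smallest in size of the 9 with the pseudocount of 0.5, whereas by plain FPKM the 1.97-fold difference of TCF7 was smaller than the 2.01-fold of MAML2. It had the highest p-value of the 9, 0.0478 in the authors' deposited table. MAML2 was above DLL1 by 1.25-fold in the control, and DLL1 was above MAML2 by 3.68-fold after silencing. MAML2 was the only one of the 9 whose sign depended on a setting tried: subtracting the median log2 ratio of all listed loci, -0.80, turned it to 0.085. Listed loci were selected for differing and their median lies among the lower ones. This sign change therefore does not measure how stable the MAML2 difference is.

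Of 47 genes in the Notch list, 5 were in the table, 4 higher and 1 lower, with a median log2 ratio of 0.96, beside 320 higher and 516 lower of all 836 loci. The 4 higher ones (DLL1, HES4, MIB2 and HES7) all have a transcript GC content in the highest of 5 equal bins of the listed loci, where 11.5% of loci were lower, and the part of GC content was not tested. The 2 outside the set of 9 were both higher. MIB2, a ubiquitin ligase that acts on Notch ligands in the sending cell, measured 8.003 FPKM in control cells and 13.8 FPKM in silenced cells (log2 ratio 0.75). HES7, another HES family gene, was at 0.327 and 1.76 FPKM (log2 ratio 1.45). The 4 NOTCH receptor genes, RBPJ, HES1 and all HEY genes were outside the table.

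Both HOXB genes were higher and were the most strongly expressed of the 9 after silencing. HOXB8 (chromosome 17, 46689708 to 46692646, minus strand) had 46.3 FPKM in control cells against 97.7 FPKM in silenced cells, giving a log2 ratio of 1.07 (p-value of 0.0052 in the authors' deposited table). HOXB9 (chromosome 17, 46698519 to 46703835, minus strand) measured 34.3 FPKM in control cells and 95.3 FPKM in silenced cells. It had the highest log2 ratio of the 9, 1.46, and the lowest p-value of the 9, 0.00015 in the authors' deposited table. HOXB8 was 1.35 times the level of HOXB9 in the control and 1.03 times after silencing, so the pair stood closer together after silencing.

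The table holds a further locus of the cluster. It names HOXB3, HOXB5 and HOXB6 together (46626232 to 46683774) and measured 17.0 FPKM in control cells and 35.3 FPKM in silenced cells, giving a log2 ratio of 1.03. Its 3 genes cannot be separated. From this locus to the end of HOXB9 the span is 77.6 kb, with gaps of 5.93 kb before HOXB8 and 5.87 kb between HOXB8 and HOXB9. Of the 10 HOXB genes, 5 are thus named in the table, and all 3 loci were higher, beside 320 of all 836 loci. None of the 29 genes of the HOXA, HOXC and HOXD clusters was listed. MEIS3, of the family of HOX cofactors, was the only listed one of 9 cofactor genes, at 6.91 and 14.0 FPKM (log2 ratio 0.97).

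**Figure D3:**
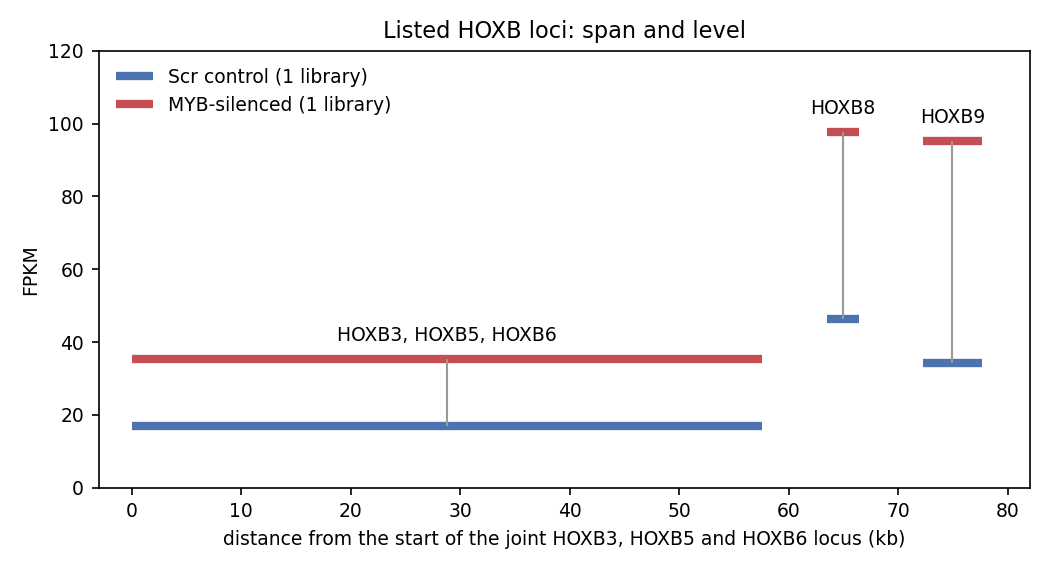
FPKM (linear axis) of the 3 listed HOXB loci against their distance in kb from the start of the joint HOXB3, HOXB5 and HOXB6 locus; bar length is the span of each locus, blue for the 1 Scr control library and red for the 1 MYB-silenced library. The red bar lies above the blue bar at each locus, and HOXB8 and HOXB9 reach 97.7 and 95.3 FPKM.

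Listed loci that start within 500 kb of a member were on the same side as it in each case. Beside TCF7, SKP1, a subunit of SCF ubiquitin ligases, starts 41.7 kb away and measured 203 FPKM in control cells and 107 FPKM in silenced cells (log2 ratio -0.93, against -0.96 for TCF7). The table's spans of the pair are 8.16 kb apart, but in GENCODE release 29 SKP1 overlaps TCF7 on the opposite strand. SKP1 was 4.28 and 4.43 times the level of TCF7 in the 2 libraries, and without a known strand setting reads of an overlap cannot be told apart. Near HES4 lie KLHL17 (3.51 and 7.20 FPKM, log2 ratio 0.94), AGRN (28.95 and 56.5 FPKM, log2 ratio 0.95) and DVL1, all higher like HES4. GC content was 41.5% for SKP1, in the bin with 92.4% of loci lower, and 64.0% to 66.0% for KLHL17, AGRN and DVL1, in the bin with 11.5% lower, and its part in these shared directions was not tested. No listed locus lay that near SHH, PTCH1, DKK1, DLL1 or MAML2.

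Other annotated overlaps bear on how surely reads belong to a member. In GENCODE release 29, HOXB8 and HOXB9 are overlapped by transcripts of HOXB7 on their own strand, DKK1 by PRKG1-AS1 on the other strand, and DLL1 by FAM120B on the other strand and AL078605.1 on its own. PTCH1 and MAML2 are overlapped on the other strand by genes known only by clone names, and MAML2 also by the microRNA gene MIR1260B. None of these was in the table, and the sources used here do not say how the authors divided such reads. SHH and HES4 had no annotated overlap.

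Direction across the table went with transcript GC content, and the 9 genes are spread along it. The median GC content, taken over a gene's GENCODE transcripts, was 44.6% for all lower loci and 60.4% for all higher loci. Each transcript counted equally whatever its length, and which transcripts the cells made was not measured. For PTCH1, for example, it rests on 27 transcripts with a median length of 881 bases. In the highest of 5 equal bins of GC content 11.5% of loci were lower, and in the lowest bin 92.4%. HES4, at 74.2%, had the highest GC content of the 783 loci with a value, and DLL1, at 62.8%, was in the same top bin. DKK1 was at 42.5%, in the second lowest bin, where 87.2% of loci were lower. SHH at 58.5%, TCF7 at 58.9%, HOXB8 at 58.0% and HOXB9 at 55.3% shared a bin in which lower and higher loci were equally many. Of these 4 genes, which were chosen with their ratios known, SHH and TCF7 were lower and HOXB8 and HOXB9 higher. PTCH1 at 49.7% and MAML2 at 46.7% shared the middle bin, where 69.4% were lower, and PTCH1 was higher there. The listed genes outside the 9 had 68.7% (KREMEN2), 65.7% (DVL1), 68.8% (MIB2), 67.3% (HES7) and 63.1% (MEIS3), all higher, and 46.2% (FZD4), lower. The part of GC content in these differences was not tested.

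**Figure D4:**
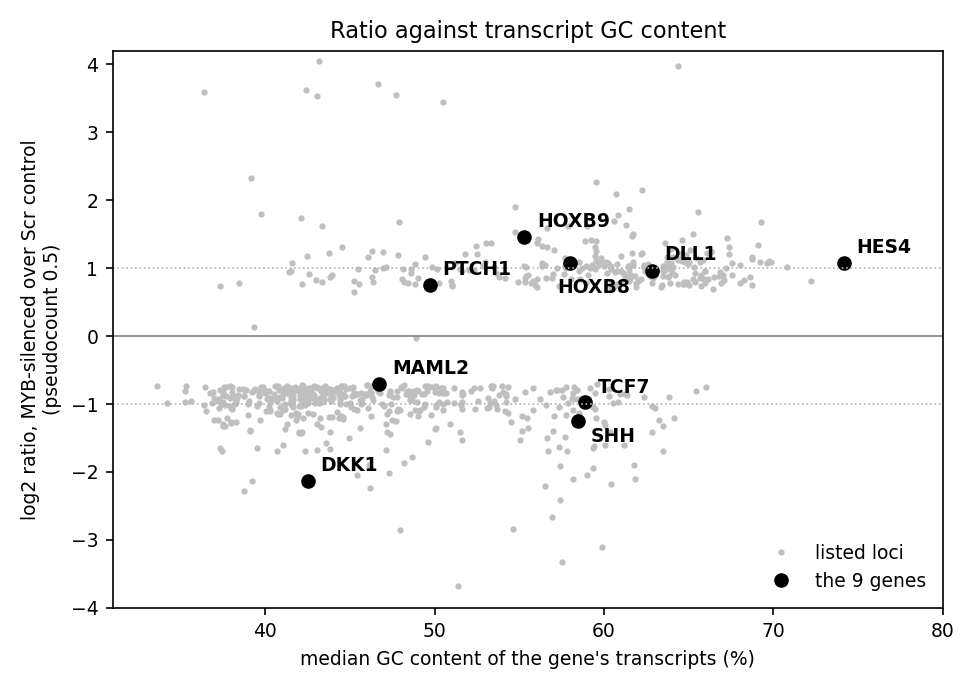
Log2 ratio of MYB-silenced over Scr control (pseudocount 0.5) against the median GC content of the gene's transcripts in percent, for listed loci (grey) and the 9 genes (black); dotted lines mark 2-fold, and 14 of 783 loci lie outside the axis. SHH, TCF7, HOXB8 and HOXB9 lie between 55.3% and 58.9% GC with ratios from -1.25 to 1.46.

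The size of most of these differences lay close to 2-fold. Taken straight from the FPKM values, 5 of the 9 genes (PTCH1, TCF7, MAML2, HES4 and HOXB8) differed by 1.97-fold to 2.13-fold. The share of all listed loci in this range was not counted. With the pseudocount, 197 of the 797 loci were at least 2-fold lower and 159 higher, and only 48 and 35 reached 3-fold. Nothing about the 9 genes is therefore read from sizes near 2-fold. Of the 5 genes in that range, PTCH1 and MAML2 were past 2-fold without a pseudocount and short of it with 0.5. TCF7, HES4 and HOXB8 were on the same side of 2-fold with each pseudocount tried and when centred. DKK1, at 5.19-fold lower, HOXB9, at 2.77-fold higher, and SHH, at 2.49-fold lower, stood farthest from 2-fold. The authors' deposited table gave 5 of the 9 genes (SHH, DKK1, TCF7, HOXB8 and HOXB9) an unadjusted p-value of 0.01 or less, as it did 253 of all 836 loci. PTCH1, DLL1 and MAML2 combined the 3 lowest mean levels of the 9 with the 3 highest p-values.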

How the data were processed

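One table of 2 libraries was used. The authors made its FPKM values. Per the submitters' processing notes the build was hg19 and the tools were Bowtie, TopHat, Cufflinks and CASAVA 1.8.2. What each tool did, the annotation, the scaling and the strandedness are not stated in those notes as used here. The authors also deposited a signed fold score, a log2 ratio without pseudocount and an unadjusted p-value per locus. The deposited log2 ratios differed by at most 4.1e-05 (rounded) from those recomputed from FPKM for all 801 loci above 0 in both libraries.

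Members were matched on the gene name. Log2 ratios used a pseudocount of 0.5, and counts of 2-fold differences used loci whose mean reached 1 FPKM. Quotients of 2 genes used plain FPKM. The members, the hedgehog, Wnt, Notch and HOX lists (206 genes) and the rules were chosen with earlier results of these data known. Named genes are the members, MYB, every listed gene of those lists, listed loci starting within 500 kb of a member, and the protein-coding locus nearest to each member in level. TNNT2, MYH7, MYL3, TNNC1, LDHA and GH1 were named after their values were seen. Printed starts in hg19 are those of the table raised by 1: with RefSeq gene lengths this gave the equal span for 41 of 753 single-gene loci, and unraised for 7. GC content (GENCODE release 29 transcripts) was found for 783 loci (93.7%). Promoter windows are RefSeq's, in GRCh38.p14, so their coordinates are not those of the table. Python 3.11.15, pandas 2.3.3 and numpy 2.4.6 were used, and the scripts were tested on simulated data. Alternatives were pseudocounts of 0.1, 1 and none, 1.5-fold and 3-fold limits, centring, and level filters of none and 5 FPKM.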

Additional observations from a re-analysis of the deposited data

How the results depend on the processing

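All 9 genes kept their direction, and their log2 ratio moved by no more than 1.5 times, with pseudocounts of 0.1 and 1 and with none. Centring on the median of all listed loci, which are genes selected for change, reversed MAML2 (0.085) and moved the others to -0.45 (SHH), -1.33 (DKK1), -0.17 (TCF7), 1.55 (PTCH1), 1.76 (DLL1), 1.87 (HES4), 1.87 (HOXB8) and 2.26 (HOXB9). The count of 2 lower and 3 higher genes at 2-fold became 4 and 5 at 1.5-fold, 1 and 0 at 3-fold, and 1 and 5 when centred. All 797 listed loci past the level filter also passed the 1.5-fold limit, so counts at 1.5-fold only repeat the directions. Without a pseudocount, an alternative added after seeing the data, 3 were lower and 5 higher, and among all loci 236 and 194. Among all loci, 197 lower and 159 higher became 497 and 300 at 1.5-fold, 48 and 35 at 3-fold, and 31 and 300 when centred. These counts stayed within 1.5 times for the other pseudocounts and level filters. No paired analysis was possible because each group has 1 library, and no library could be left out. Depth is unknown, so the values near 1 FPKM (PTCH1, DLL1 and MAML2) are the least certain.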

Other observations

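For each member, the protein-coding locus nearest in level over the 2 libraries (distance between log2(FPKM + 0.5) values) was in none of the hedgehog, Wnt, Notch and HOX lists. Those lists hold only 16 of all 836 loci, so nothing is read from this absence. With 2 libraries, nearness describes similar levels only. The locus nearest SHH was PDK1, a pyruvate dehydrogenase kinase, with 15.7 FPKM in control cells and 6.14 FPKM in silenced cells. The locus nearest DKK1 was BIRC3, an inhibitor of apoptosis, at 11.6 and 1.99 FPKM. NFIB, a nuclear factor I gene, lay nearest MAML2 at 1.70 and 0.824 FPKM, and RNF182 lay nearest TCF7 at 47.0 and 24.8 FPKM. BCAT1, which starts the breakdown of branched-chain amino acids, lay nearest DLL1 at 1.37 and 2.93 FPKM, BEAN1 nearest PTCH1 at 1.07 and 2.34 FPKM, and RRAS, a RAS-related GTPase, nearest HES4 at 19.6 and 44.0 FPKM. HOXB8 and HOXB9 had more distant neighbours. These were BLVRB, a biliverdin reductase, at 54.3 and 101 FPKM, and RBCK1 at 36.1 and 75.6 FPKM, at distances of 0.23 and 0.34 against 0.03 for SHH and PDK1.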
